A study of Mus musculus with 58 samples.

Results

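The KMT5 genes encode the enzymes that methylate lysine 20 of histone H4 (H4K20). The 3 members, Kmt5a, Kmt5b and Kmt5c, were taken by name from the 18088 genes of a table of normalised RNA-seq counts. The libraries came from prefrontal cortex of C57BL/6J mice on postnatal day 25, after 3 weeks (days 3 to 24) of treatment given through the milk of the mother. Heterozygous mice of the Kmt5b line (HT) that received lithium, fluoxetine or vehicle gave 10 libraries each, and wild-type mice (WT) gave 8 with lithium, 10 with fluoxetine and 10 with vehicle. Each of the 12 groups of genotype, treatment and sex held 5 libraries, except the WT lithium groups with 4 per sex. All 58 libraries share the strain, the age and the rearing by a mother on treatment or vehicle. The labels give neither the design of the Kmt5b allele nor the litter, so p-values measure the spread between these libraries, which may include pups of 1 treated mother.

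Kmt5a (also called SET8 or PR-Set7) places the single methyl group on H4K20, and Kmt5b and Kmt5c (SUV4-20H1 and SUV4-20H2) extend it to the dimethyl and trimethyl forms. The single mark is tied to mitosis, DNA replication and chromosome compaction, the dimethyl mark is the most widespread and is read by DNA repair factors, and the trimethyl mark is enriched in heterochromatin. In people, loss of 1 working copy of KMT5B is a known cause of developmental delay with autism or intellectual disability. Lithium is a mood stabiliser that inhibits GSK3 kinases and inositol phosphatases, and fluoxetine blocks the serotonin transporter.

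Kmt5a (ENSMUSG00000049327) lies on chromosome 5 from 124439930 to 124462308, Kmt5b (ENSMUSG00000045098) on chromosome 19 from 3767421 to 3818303, and Kmt5c (ENSMUSG00000059851) on chromosome 7 from 4740115 to 4747514, all on the plus strand of GRCm38. The promoters are shown because they are a feature by which the members can be compared without their RNA. Each is a RefSeq window (GRCm38.p6) of 300 bases that starts 250 bases before a transcription start and spans the start of the annotated gene, at chr5:124439680-124439979, chr19:3767171-3767470 and chr7:4739877-4740176 (plus strand). Capitals mark the CCAAT motif, or ATTGG where it lies on the minus strand.
Kmt5a: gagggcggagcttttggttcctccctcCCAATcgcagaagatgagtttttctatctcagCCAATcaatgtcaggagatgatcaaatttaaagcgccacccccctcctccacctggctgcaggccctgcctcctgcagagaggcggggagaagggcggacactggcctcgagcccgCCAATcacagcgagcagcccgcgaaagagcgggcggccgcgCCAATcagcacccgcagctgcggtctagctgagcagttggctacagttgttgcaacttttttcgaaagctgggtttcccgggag
Kmt5b: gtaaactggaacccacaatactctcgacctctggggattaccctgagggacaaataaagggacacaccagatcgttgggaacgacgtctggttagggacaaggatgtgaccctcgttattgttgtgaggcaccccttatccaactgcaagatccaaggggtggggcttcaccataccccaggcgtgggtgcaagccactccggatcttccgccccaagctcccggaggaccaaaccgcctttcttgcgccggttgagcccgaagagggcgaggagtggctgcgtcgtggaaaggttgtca
Kmt5c: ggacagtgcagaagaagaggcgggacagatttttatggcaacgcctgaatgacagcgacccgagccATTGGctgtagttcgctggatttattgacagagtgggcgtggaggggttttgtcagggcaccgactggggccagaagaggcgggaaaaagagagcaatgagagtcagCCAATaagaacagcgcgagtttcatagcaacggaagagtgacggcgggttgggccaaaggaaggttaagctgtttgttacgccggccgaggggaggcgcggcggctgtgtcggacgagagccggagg
The 3 windows differ in these motifs. RefSeq windows numbered 3 for Kmt5a, 2 for Kmt5b and 1 for Kmt5c, and the copies given are those of the windows shown. CCAAT was present in 4 copies at Kmt5a, in 2 at Kmt5c and in 0 at Kmt5b. Of 32851 mouse promoter windows of this length, 37.4% held CCAAT on either strand and 3.37% held at least 3 copies. The GC box GGGCGG, searched on both strands, occurred in 3 copies at Kmt5a, in 1 at Kmt5b and in 0 at Kmt5c. Of all windows, 35.7% held at least 1 and 10.7% at least 3. An E2F motif (TTTCCCGC or TTTGGCGC) occurred once on the minus strand of the Kmt5c window, and 1.56% of windows held one. The letters TATAAA and TGACGTCA were in none of the 3, against 13.6% and 1.79% of windows. The G and C content was 59.7% at Kmt5a, 57.3% at Kmt5b and 57.7% at Kmt5c, and the median of all windows was 52.7%. These matches describe letters in the windows and do not show binding.

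The deposited values behave as read counts scaled by 1 factor in each library, and the recovered counts summed to between 23.5 and 38.6 M per library (median 27.6 M). The defining genes of excitatory cortical neurons were present in each group: Slc17a7, their vesicular glutamate transporter, averaged 47673 normalised counts and Tbr1, a factor of deep cortical layers, 3344. A mean level of 4 olfactory bulb markers (Cdhr1, Doc2g, Tbx21 and Eomes, genes of bulb projection neurons) split the libraries into 10 with values of 3.6 to 5.01 on the log2 scale and 48 with values of 6.77 to 10.65. Of the 10 low libraries, 3 were HT lithium, 3 HT fluoxetine, 1 WT fluoxetine and 3 WT vehicle, and HT vehicle and WT lithium held 0. Results are therefore also given without these 10 libraries where that changes them. In bulk tissue, fewer cells of a type and less RNA per cell cannot be told apart.

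All 3 genes were well covered in all 58 libraries. Kmt5b had a mean normalised count of 1695 ± 124 (SD, n = 58), with a lowest value of 1409 and a highest of 2008. Kmt5a had 1341 ± 100.3 (1115 to 1573), and Kmt5c had 503 ± 58.8 (403 to 681). The coefficient of variation was 7.34% for Kmt5b and 7.48% for Kmt5a, against 11.7% for Kmt5c. Over all annotated transcripts together, the exons of Kmt5b cover the most bases (14752, against 5307 for Kmt5a and 4001 for Kmt5c). Levels between the genes were therefore compared per kilobase of this joint exon length. Which transcripts were in use was not tested, so the order of the genes and the ratios rest on this length. On that scale Kmt5a was the highest, at 253 ± 18.9, followed by Kmt5c at 126 ± 14.7 and Kmt5b at 115 ± 8.43. Kmt5a lay above Kmt5b and above Kmt5c in 58 of 58 libraries, whereas Kmt5c lay above Kmt5b in 46 of 58. The ratio per kilobase was 2.21 ± 0.246 for Kmt5a over Kmt5b and 1.10 ± 0.114 for Kmt5c over Kmt5b (SD, n = 58).

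**Figure D1:**
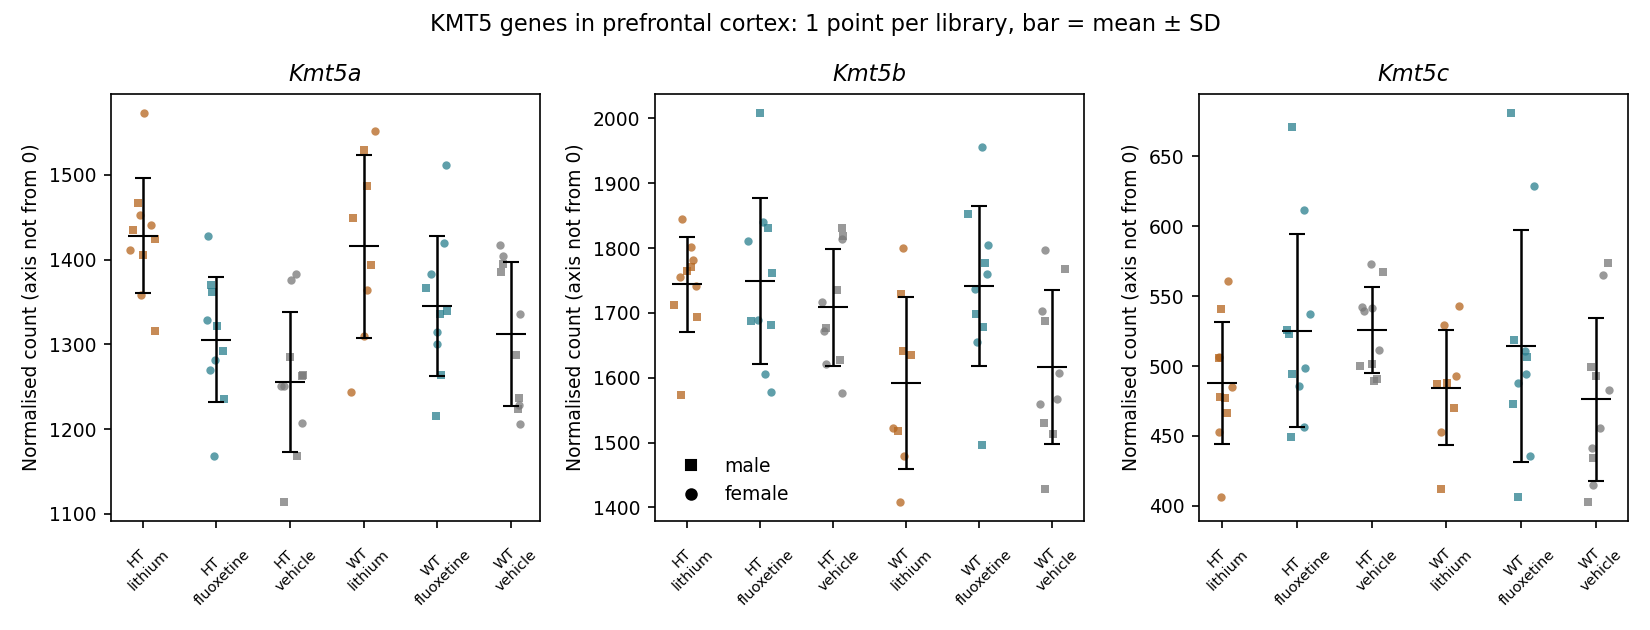
Normalised counts of Kmt5a, Kmt5b and Kmt5c in each of the 58 libraries, by genotype and treatment; squares are males, circles females, and the bars are means ± SD. Kmt5a runs from 1315 to 1573 in HT lithium libraries and from 1115 to 1383 in HT vehicle libraries, while the groups of Kmt5b and Kmt5c overlap.

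Kmt5b, the gene named by the genotype, was not lower in the libraries labelled HT. The HT libraries had a lowest value of 1573, a median of 1738 and a highest of 2008 (n = 30), and the WT libraries had 1409, 1667 and 1956 (n = 28). The 2 ranges overlapped over most of their length. Across treatments Kmt5b averaged 1734 ± 98.3 in HT and 1654 ± 137 in WT libraries. The log2 difference was 0.07 (SE 0.0251, 95% confidence interval 0.02 to 0.12, adjusted p = 0.186 in limma over all 16669 genes tested). The table has 1 value per gene, so RNA from an altered allele and from an intact allele cannot be told apart, and directions between genotypes rest on the labels. The antisense gene Gm16066 overlaps exons of Kmt5b and was not analysed here, so that a share of its reads within the Kmt5b value was not tested.

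Within treatments the Kmt5b difference between genotypes varied in size. With lithium, HT libraries had a lowest value of 1573, a median of 1760.0 and a highest of 1845, and WT libraries had 1409, 1579 and 1801; 9 of 10 HT libraries lay above the WT median. With vehicle, HT libraries had 1576, 1697 and 1831, and WT libraries had 1428, 1587 and 1797, and again 9 of 10 HT libraries lay above the WT median. With fluoxetine, HT libraries had 1579, 1726 and 2008, and WT libraries had 1497, 1748 and 1956, with 5 of 10 HT libraries above the WT median. The log2 difference was 0.13 with lithium (SE 0.0453, adjusted p = 0.27), 0.08 with vehicle (SE 0.0427, adjusted p = 0.435) and 0.0066 with fluoxetine (SE 0.0427, adjusted p = 0.966). Of the 3 members, 0 passed in the comparison of HT with WT averaged over treatments, where 0.468% of all genes passed, and 0 passed with lithium (0.06% of all genes), fluoxetine (0.612%) or vehicle (0.048%). The Kmt5b difference with lithium passed without WT lithium female 1 (0.17, adjusted p = 0.0384). It also passed with the bulb marker level as a covariate (0.16, adjusted p = 0.0384), as did the average over treatments (0.07, adjusted p = 0.041).

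**Figure D2:**
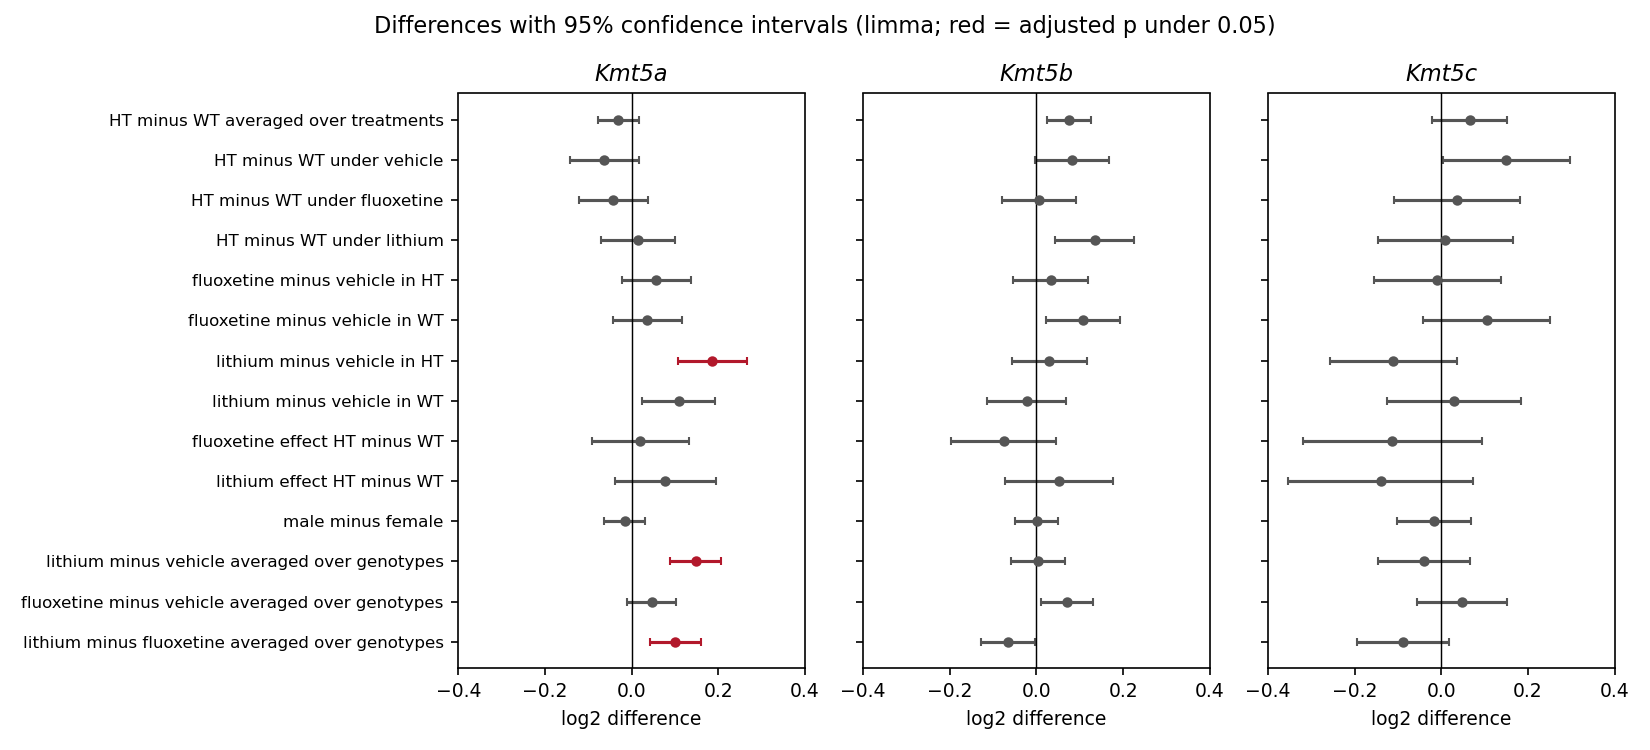
Log2 differences of Kmt5a, Kmt5b and Kmt5c (horizontal axis) in 14 comparisons with 95% confidence intervals; red marks an adjusted p under 0.05. Only Kmt5a carries red points, at 0.19 for lithium minus vehicle in HT, 0.15 for lithium minus vehicle averaged over genotypes and 0.10 for lithium minus fluoxetine averaged over genotypes.

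Kmt5b passed in no comparison of a drug with vehicle. Among 10 WT libraries of each treatment, the means were 1741 ± 124 (SD) for fluoxetine and 1616 ± 119 for vehicle, and 9 of 10 fluoxetine libraries lay above the vehicle median; limma put the log2 change at 0.11 (SE 0.0427, adjusted p = 0.105). Among HT libraries the means were 1750 ± 128 for fluoxetine and 1709 ± 90.2 for vehicle, and the log2 change was 0.03 (SE 0.0427, adjusted p = 0.658). The ranges overlapped in both genotypes. The WT difference passed without WT fluoxetine male 2 (0.13, adjusted p = 0.0423). Lithium gave log2 differences of 0.03 in HT (adjusted p = 0.682) and -0.02 in WT (adjusted p = 0.862). The difference between genotypes in the response was -0.08 for fluoxetine (SE 0.0604, adjusted p = 0.665) and 0.05 for lithium (SE 0.0622, adjusted p = 0.731). In the test of the fluoxetine response 0 of 3 members passed, against 0.042% of all genes. The 12 groups ran from WT lithium females, at 1553 ± 172 (n = 4), to HT fluoxetine males, at 1794 ± 135 (n = 5).

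Kmt5a, which sets the first methyl group, was higher with lithium in HT mice. HT lithium libraries had a lowest value of 1315, a median of 1429.6 and a highest of 1573, and HT vehicle libraries had 1115, 1257 and 1383 (n = 10 each). Of the lithium libraries 8 lay above every vehicle library, and all 10 lay above the vehicle median. The means were 1428 ± 68.0 with lithium and 1256 ± 82.5 with vehicle, and the log2 difference was 0.19 (SE 0.0397, 95% confidence interval 0.11 to 0.27, adjusted p = 0.00117 in limma), which is 1.14-fold. It was 0.16 in females and 0.21 in males. Kmt5a was the 1 member of 3 that passed, and it rose, while 7.46% of all genes rose and 6.61% fell in that comparison. The call held under each of the 16 other settings, with differences of 0.15 to 0.20 and adjusted p-values of 0.000897 to 0.00904, and without each of the 20 libraries in turn (0.17 to 0.20).

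In WT mice the Kmt5a difference had the same sign and did not pass. WT lithium libraries had a lowest value of 1244, a median of 1421 and a highest of 1551 (n = 8), and WT vehicle libraries had 1206, 1312 and 1418 (n = 10). Of the lithium libraries 4 lay above every vehicle library, and the groups overlapped. The log2 difference was 0.11 (SE 0.0421, adjusted p = 0.158), with 0.05 in females and 0.17 in males. Of the 3 members, 0 passed in WT with lithium, against 3.34% of all genes. With the bulb marker level as a covariate the WT difference passed (0.14, adjusted p = 0.0175). The difference between HT and WT in the response to lithium was 0.08 (SE 0.0578, 95% confidence interval -0.04 to 0.19, adjusted p = 0.553), so the response was not shown to differ between genotypes. In that test 0 of the 16669 genes passed in limma, with 2320 at an unadjusted p under 0.05, 0 in edgeR and 0 in DESeq2. Without WT lithium female 1 there were 31 and without WT lithium female 2 there were 37, and 1 passed when the groups compared were fitted alone.

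Averaged over genotypes, a comparison added after the data were seen, Kmt5a was higher with lithium than with vehicle by 0.15 (SE 0.0289, adjusted p = 0.000264), where 14.8% of all genes passed. Against fluoxetine it was higher by 0.10 (SE 0.0289, adjusted p = 0.0146), where 12.3% of all genes passed. Both comparisons use the same lithium libraries. Fluoxetine libraries had Kmt5a values of 1169 to 1428 in HT and 1216 to 1512 in WT, and vehicle libraries had 1115 to 1383 in HT and 1206 to 1418 in WT. Fluoxetine minus vehicle was 0.06 in HT (SE 0.0397, adjusted p = 0.361) and 0.04 in WT (SE 0.0397, adjusted p = 0.596), and 0 of 3 members passed in either, against 12.8% of all genes in HT and 7.39% in WT. Averaged over genotypes, fluoxetine minus vehicle was 0.05 for Kmt5a (adjusted p = 0.233), 0.07 for Kmt5b (adjusted p = 0.0832) and 0.05 for Kmt5c (adjusted p = 0.541), and 0 of 3 passed, against 23.5% of all genes. The order of the group means was HT lithium, WT lithium, WT fluoxetine, WT vehicle, HT fluoxetine and HT vehicle, and each mean differed from the next by less than the SD of either group.

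Other measures of the libraries were compared between lithium and vehicle in HT. Summed counts of the 4 bulb markers had a lowest value of 137, a median of 3316 and a highest of 5383 in HT lithium libraries, and 1218, 2996 and 6740 in HT vehicle libraries. Of these markers 0 of 4 passed, all were below 0, and their median log2 difference was -1.25. Among the other marker lists, each of 4 genes, endothelial markers had 2 that fell. These were Cldn5, a tight junction protein, at -0.37, and Tek, a vessel receptor, at -0.34. The other 2 endothelial markers did not pass, 1 of them was above 0, and the list median was -0.22. In this comparison 7.46% of all genes rose and 6.61% fell. Inhibitory neuron markers had 1 that rose (Pvalb, a calcium buffer of fast-spiking cells, at 0.49). The other 3 inhibitory markers were below 0 and did not pass (Slc32a1 at -0.24, Gad1 at -0.12 and Gad2 at -0.0077), and the median of that list was -0.06. The summed endothelial counts were 3307 to 3892 in HT lithium and 3227 to 4619 in HT vehicle libraries. The percentage of counts from mitochondrial genes was 7.66 ± 0.746 in HT lithium and 6.75 ± 0.660 in HT vehicle libraries (SD, n = 10 each). The part of the endothelial, Pvalb and mitochondrial values in the Kmt5a difference was not tested. For the bulb markers, the Kmt5a difference was 0.17 (adjusted p = 0.00904) without the 10 low libraries and 0.15 (adjusted p = 0.00165) with the marker level as a covariate.

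Kmt5c, the enzyme most closely tied to the trimethyl mark of heterochromatin, passed in no comparison. With vehicle, HT libraries had a lowest value of 489, a median of 526 and a highest of 573, and WT libraries had 403, 469 and 573 (n = 10 each). All 10 HT libraries lay above the WT median, and the upper ends of both groups coincided. The means were 526 ± 30.9 in HT and 476 ± 58.5 in WT, with a log2 difference of 0.15 (SE 0.0727, 95% confidence interval 0.0037 to 0.30, adjusted p = 0.395). The difference was 0.04 with fluoxetine (SE 0.0727, adjusted p = 0.876) and 0.0095 with lithium (SE 0.0772, adjusted p = 0.98). Under lithium in HT, Kmt5c had 406, 481 and 561 as lowest, median and highest values, and 6 of 10 lithium libraries lay below every vehicle library. The log2 difference of lithium minus vehicle was -0.11 in HT (SE 0.0727, adjusted p = 0.314) and 0.03 in WT (SE 0.0772, adjusted p = 0.9). Fluoxetine minus vehicle was -0.0091 in HT (adjusted p = 0.952) and 0.10 in WT (adjusted p = 0.378). The widest groups were the fluoxetine groups, with 449 to 671 in HT and 406 to 681 in WT.

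No member passed between the sexes. The log2 difference of males minus females was -0.02 for Kmt5a (SE 0.0234), 0.00029 for Kmt5b (SE 0.0251) and -0.02 for Kmt5c (SE 0.0429). Adjusted p-values were at least 0.887, 0 of 3 members passed, and 0.132% of all genes did.

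The genes that act on or read H4K20 methylation were described by 5 lists from textbook knowledge. Under lithium in HT, 7.46% of all genes rose and 6.61% fell. Of the 5 demethylase genes 1 rose and 1 fell, with a median of -0.02, and 3 did not pass. Kdm7a, which removes methyl groups from H4K20 and histone H3, rose by 0.24 (adjusted p = 0.00221). Phf8, a demethylase of the single H4K20 mark, was at 0.09 (adjusted p = 0.203). Of the readers, 11 were tested (Orc1 was not analysed here) and 1 fell, L3mbtl2, a repressor with domains that bind the lower methyl states (-0.14, adjusted p = 0.00561). Trp53bp1, a repair factor that binds the dimethyl mark, was at -0.03 (adjusted p = 0.715). The median over the readers was 0.01, beside -0.0015 over all genes. With the bulb marker level as a covariate 3 readers passed. With the exon length slope (the slope of a library's log2 deviations on log2 exon length) 2 readers and 1 demethylase gene passed. Over the 16 other settings, calls over all genes ran from 1061 to 3186, against 2345 in the main fit.

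Regulators of the Kmt5a protein had 1 of 10 that rose and 3 that fell under lithium in HT, where 7.46% of all genes rose and 6.61% fell. Dtl, the subunit that brings chromatin-bound Kmt5a to the CUL4 ubiquitin ligase, rose by 0.26 (adjusted p = 0.0472). Ddb1, the adaptor of the same ligase, fell (-0.11, adjusted p = 0.00415), as did Fzr1, the activator of the anaphase-promoting complex (-0.11, adjusted p = 0.0371), and Sirt2, a deacetylase that acts on Kmt5a and is also abundant in oligodendrocytes (-0.23, adjusted p = 0.0164). Of the 4 oligodendrocyte markers 0 passed, with a median of -0.10. The median over the regulators was 0.03. On the 54 libraries whose counts could be recovered, 1 regulator passed in limma, 1 in edgeR and 1 in DESeq2. Over all genes 1061 passed there in limma, 1074 in edgeR and 1257 in DESeq2, against 2345 in the main fit. The 4 libraries left out of the 54 were HT lithium male 3, HT vehicle female 2 and HT vehicle males 1 and 5. The count of regulators was 2 without HT lithium female 4 or 5, HT lithium male 4 or 5, or HT vehicle male 1, 4 or 5. Heterochromatin partners had 2 of 10 that fell, Suv39h1, a writer of trimethylated H3 lysine 9 (-0.19, adjusted p = 0.0016), and Trim28, a co-repressor (-0.11, adjusted p = 0.00649), with a median of 0.02. On the 54 libraries 1 passed by each of the 3 tools, and 3 passed with the bulb marker level as a covariate.

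Mitosis genes, which mark the phase in which the single H4K20 mark peaks, were lower in HT lithium libraries. Their summed counts had a lowest value of 222, a median of 325 and a highest of 398 in HT lithium libraries, and 359, 485 and 671 in HT vehicle libraries. Of 9 members 5 fell, where 6.61% of all genes fell, and all 9 were below 0, with a median of -0.58. The 4 with the smallest p were Top2a, a DNA topoisomerase of dividing cells (-1.03, adjusted p = 0.000369), Mki67, the Ki-67 protein (-0.81, adjusted p = 0.00256), Cdk1, the mitotic kinase (-0.76, adjusted p = 0.00979), and Aurkb, a kinase of chromosome segregation (-0.94, adjusted p = 0.0277). The count was 5 without the 10 libraries low in bulb markers and 3 after adjustment for the exon length slope. On the 54 libraries, which lack 4 HT libraries, it was 2 by each of the 3 tools. Calls over all genes were 1061 to 1257 there, against 2345 in the main fit. Among genes with a mean of at least 100 the count of mitosis genes was 1, but that filter left only Mki67 of the list to test. The count was 3 without HT lithium male 5, HT vehicle female 2 or HT vehicle male 1. These genes are scarce in this tissue, with mean counts of 108 for Mki67, 87.1 for Top2a, 24.9 for Cdk1 and 12.5 for Aurkb. Kmt5a had a mean of 1341, and the filter of the fit was a mean of 10. In the same libraries Kmt5a rose, and in WT mice 0 of the 9 passed with lithium (median -0.09). For the genotype difference in the lithium response 0 of the 9 passed (median -0.33), so the fall was not shown to differ between genotypes. In the later comparison of lithium with vehicle averaged over genotypes 4 of 9 fell, where 14.8% of all genes passed in either direction. In that of lithium with fluoxetine 5 of 9 fell (median -0.47), where 12.3% of all genes passed in either direction. With vehicle all 9 were higher in HT than in WT (median 0.26), and 0 passed, against 0.048% of all genes.

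**Figure D3:**
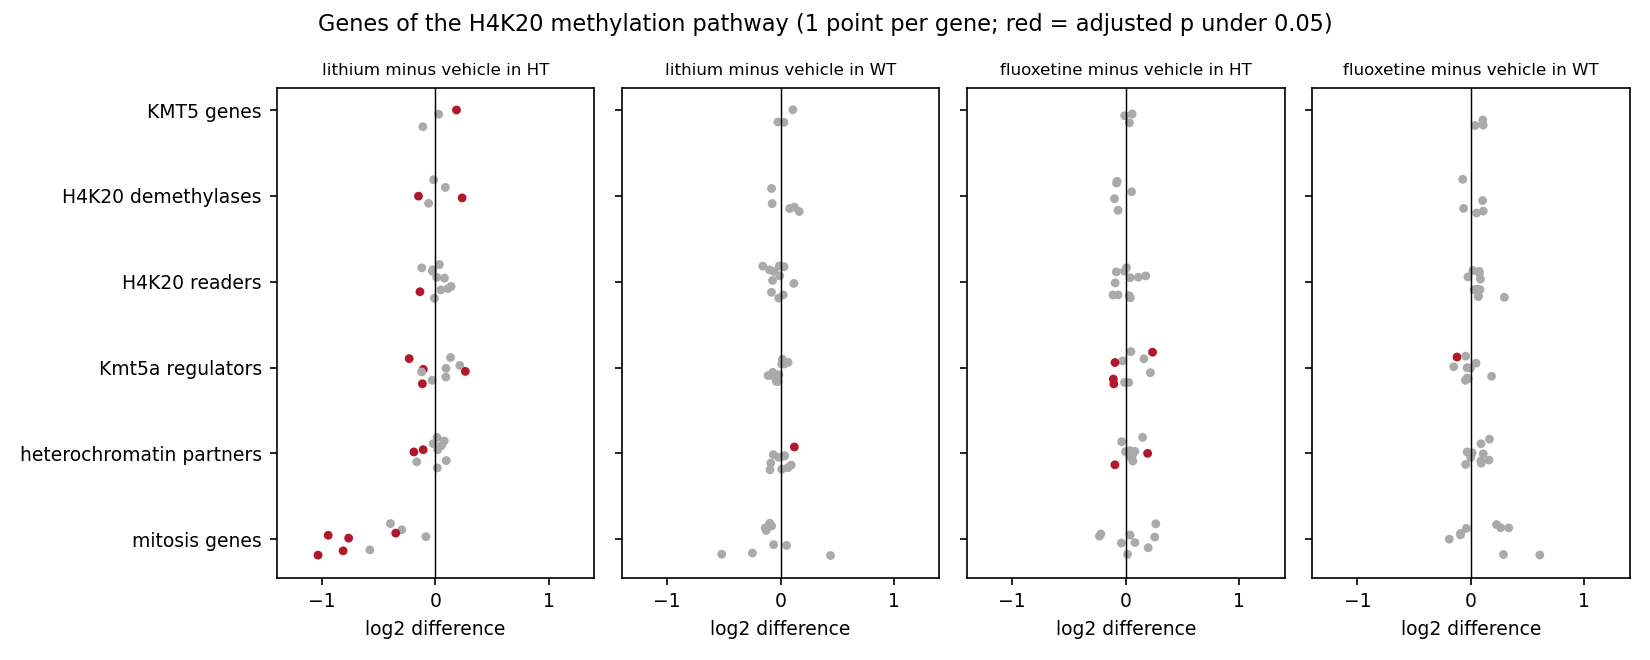
Log2 differences of the KMT5 genes and of 5 lists of the H4K20 pathway in 4 drug comparisons, 1 point per gene, with red for an adjusted p under 0.05. Under lithium in HT, 5 of 9 mitosis genes are red on the left of 0 and Kmt5a is red at 0.19; under lithium in WT, 1 heterochromatin partner is red.

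The other comparisons called fewer of these genes. Under lithium in WT, 1 of 10 heterochromatin partners rose, Setdb1, a writer of methylated H3 lysine 9 (0.12, adjusted p = 0.0293), and 0 genes of the other lists passed, against 3.34% of all genes. Under fluoxetine in HT, 4 of 10 Kmt5a regulators passed, against 12.8% of all genes. Cdc14b, a phosphatase known in human cells to act on Kmt5a, rose by 0.24 (adjusted p = 0.0102), whereas Ddb1 (-0.10, adjusted p = 0.00591), the ligase scaffold Cul4a (-0.095, adjusted p = 0.0421) and Fzr1 (-0.11, adjusted p = 0.0496) fell. Among the heterochromatin partners, Rb1, the retinoblastoma protein, rose (0.19, adjusted p = 0.0315) and Trim28 fell (-0.10, adjusted p = 0.0172). Under fluoxetine in WT, Fzr1 fell (-0.12, adjusted p = 0.0404), and 7.39% of all genes passed. These counts moved in both directions under other settings. On the 54 libraries 1 Kmt5a regulator passed under fluoxetine in HT by each of the 3 tools. Over all genes 789 passed there in limma, 817 in edgeR and 1003 in DESeq2, against 2134 in the main fit. Without the 10 libraries low in bulb markers 2 regulators passed under fluoxetine in HT. Without those 10, 0 of the regulators passed under fluoxetine in WT and 0 of the heterochromatin partners under lithium in WT. Over all genes 679 passed in the former and 310 in the latter, against 1232 and 556 in the main fit. The heterochromatin partners called under fluoxetine in HT were 0 in limma and edgeR and 1 in DESeq2 on the 54 libraries, and 1 without the 10. With the bulb marker level as a covariate 5 of them passed, along with 2 readers and 1 demethylase gene. Over all genes that setting called 4088, against 2134 in the main fit. Leaving out 1 library put the regulators called under fluoxetine at 2 to 4 in HT and 0 to 2 in WT, and the heterochromatin partners at 1 to 2 in HT, 0 to 3 in WT and, with lithium, 0 to 1 in WT. In the comparisons of HT with WT, averaged and within each treatment, 0 genes of the 5 lists passed; without WT lithium female 1, 1 regulator passed with lithium. Each drug comparison within a genotype uses the same vehicle libraries as the other drug.

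Across libraries, Kmt5b and Kmt5c varied together. After subtraction of the group means, Pearson's r between Kmt5b and Kmt5c was 0.47 (Spearman's rho 0.39, n = 58, permutation test within groups, two-sided, adjusted p = 0.00477 over 3 pairs; rho adjusted p = 0.0248; r = 0.49 without the 2 most distant libraries). Within the 48 libraries with higher bulb markers it was 0.42 (adjusted p = 0.0256), and with the bulb marker level as a covariate it was 0.17 (adjusted p = 0.428). Between Kmt5a and Kmt5c r was -0.32 (rho -0.28, adjusted p = 0.0322; rho adjusted p = 0.0664; r = -0.32 without the 2 most distant libraries) and -0.19 in the 48 libraries (adjusted p = 0.34). Between Kmt5a and Kmt5b r was -0.26 (rho -0.27, adjusted p = 0.101; r = -0.24 without the 2 most distant) and -0.04 in the 48 libraries.

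**Figure D4:**
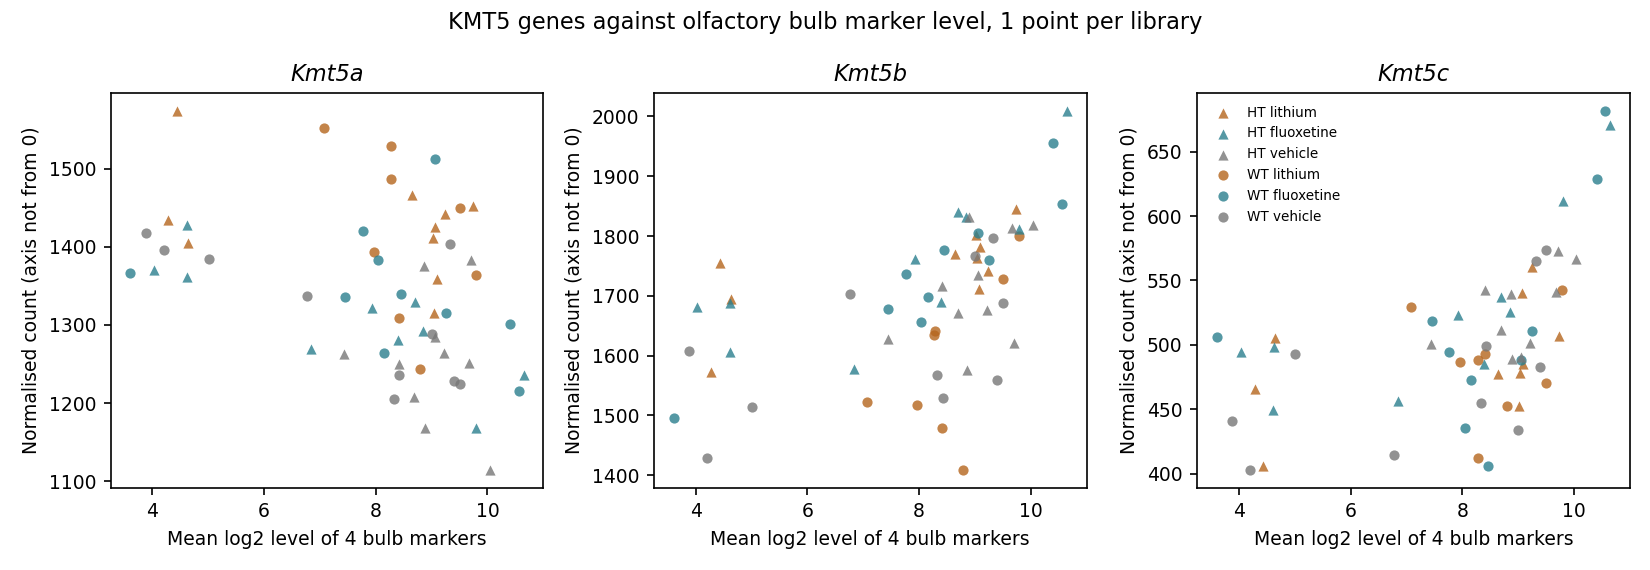
Normalised counts of Kmt5a, Kmt5b and Kmt5c against the mean log2 level of 4 olfactory bulb markers, 1 point per library; triangles are HT, circles WT, and colours give the treatment. The 10 libraries at 3.6 to 5.01 stand apart from the other 48, and within the 48 Kmt5b and Kmt5c rise with the marker level.

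The members differed in their relation to the bulb markers. Within the 48 libraries r was 0.61 for Kmt5b (rho 0.56, permutation test within groups, adjusted p = 0.00072 over 6 relations; r = 0.65 without the 2 most distant libraries) and 0.65 for Kmt5c (rho 0.59, adjusted p = 0.00072; r = 0.57 without the 2 most distant). For Kmt5a r was -0.39 (rho -0.28, adjusted p = 0.0505; r = -0.34 without the 2 most distant). Within the 10 low libraries r was 0.13 for Kmt5a, 0.22 for Kmt5b and 0.07 for Kmt5c, with adjusted p-values of at least 0.822. There group means were not subtracted and the permutations ran over all 10, so these values differ in kind from those of the 48. The 10 low libraries averaged 1414 ± 61.6 for Kmt5a, 1604 ± 103 for Kmt5b and 466 ± 39.8 for Kmt5c, and the other 48 averaged 1326 ± 101, 1714 ± 121 and 511 ± 59.5. These libraries were set apart by the data, not by the labels. Of 12 further relations with library measures 2 passed. The exon length slope of a library is computed from all genes with a mean of at least 10, including Kmt5b with its 14752 exon bases. A gene this long tends to rise with the slope by construction, so that relation says little about Kmt5b itself. Kmt5b rose with the exon length slope (r = 0.65, rho 0.66, adjusted p = 0.00012; the raw p of 1e-05 is the smallest the resamples can give; r = 0.65 without the 2 most distant). Kmt5a rose with the mitochondrial percentage (r = 0.56, rho 0.56, adjusted p = 0.00048; r = 0.52 without the 2 most distant). After adjustment for that slope the Kmt5b difference of HT minus WT averaged over treatments was 0.09 (adjusted p = 0.0096), and passed.

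The genes whose log2 levels were most like those of each member over the 58 libraries differed between the members. For Kmt5a they were Fam8a1 (r = 0.77), Pdp1, a mitochondrial phosphatase of pyruvate dehydrogenase (0.77), and Spred1, an inhibitor of Ras signalling (0.76). For Kmt5b they were Shisa6, an AMPA receptor auxiliary protein (0.86), Atad2b, a bromodomain ATPase (0.85), and the collagen gene Col24a1 (0.85). For Kmt5c they were Ppp2r3d, a phosphatase subunit (0.79), Csf2ra, a cytokine receptor chain (0.76), and the collagen gene Col7a1 (0.75). These are the highest of 16669 genes and are given as a description, with no test; the libraries share treatment, depth and tissue composition.

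No gene near a member passed between the genotypes. Of genes that start within 500 kb, 24 were tested around Kmt5a, 36 around Kmt5b and 35 around Kmt5c. In HT against WT averaged over treatments 0 of them passed, and at an unadjusted p under 0.05 there were 0 around Kmt5a, 2 around Kmt5b and 1 around Kmt5c. The 36 neighbours of Kmt5b had log2 differences of -0.06 to 0.30, with a median of 0.0022 and a smallest adjusted p of 0.169. With lithium, fluoxetine or vehicle alone 0 passed around any of the 3.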

How the data were processed

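RNA-seq libraries were made from total RNA of prefrontal cortex with a stranded mRNA kit, per the labels' protocols. The submitters' processing notes name the build GRCm38 and the tools Salmon (version 0.11.2), DESeq2 (version 1.19.11) and R (version 3.6.0); their roles and the annotation release are not given in the sources used here. The deposited table holds a normalised signal per gene and library. In all 58 libraries 100% of the nonzero values were whole multiples of 1 step of 0.75 to 1.27 (tolerance 0.01 of a step), which allowed read counts to be recovered; for 4 libraries the step was too close to 1 to be decided, and count tests used the other 54. The 4 libraries left out were HT lithium male 3, HT vehicle female 2 and HT vehicle males 1 and 5. All WT libraries were kept, so the count tests have fewer HT vehicle libraries than the main fit. Depth was 23.5 to 38.6 M recovered counts, with 320 to 2010 counts for each member in each library. These ranges cover all 58 libraries and take the smallest nonzero value as the step, also in the 4 left out.

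The deposited signal was taken as log2(value + 1). The 16669 genes with a mean of at least 10 were fitted in limma 3.58.1 (with a variance trend, R 4.3.3) with 1 coefficient for each of the 12 groups, comparisons averaged over sexes, and p-values adjusted by Benjamini-Hochberg over all genes; the threshold was 0.05, and 1419 genes were left out. Log2 differences understate changes of scarce genes. Alternatives were edgeR 4.0.16 and DESeq2 1.42.0 on the 54 libraries, other scalings, filters, pseudocounts and covariates, a replicate block, and each library left out in turn. Correlations used 100000 permutations within groups, except among the 10 libraries low in bulb markers, where the permutations ran over all 10. The fit was tested on simulated data. Exon lengths and positions came from GENCODE M21 (GRCm38), and 18077 of 18088 gene IDs had a symbol.

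The members and lists were chosen with earlier results of these data known. Named genes were the members, the 3 genes most like each over the 58 libraries, and up to 4 genes of a list with the smallest p; where a list had more than 4 genes that passed, the others are counted; some list genes are not reported here. Pairs of HT and WT libraries with the same replicate number had correlated deviations (over 0.1) in 8 of 28 cases, with a median of -0.02. The main fit did not pair libraries by number. Pairs with unlike numbers were not compared, so whether the numbers carry a batch or a litter was not tested.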

Additional observations from a re-analysis of the deposited data

Results flagged for a closer look

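In a check of the 5 or 4 libraries of each group for each member, HT vehicle male 2 stood apart for Kmt5c, with a normalised count of 567, where the other 4 libraries of the group lay between 489 and 502. The gap to its nearest neighbour was 0.841 of the range of the group. This was 1 of 36 groups checked, and chance flags about 1 in 20.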

How the results depend on the processing

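Over the comparisons and correlations of the members, 658 of 690 values kept their direction and their side of the threshold under settings other than leaving out a library, 22 changed sign, 4 lost and 6 gained a call. The cause of these changes was not tested. The Kmt5a difference under lithium in HT kept its call throughout, as did Kmt5a for lithium against vehicle and against fluoxetine averaged over genotypes. The exon length slope, the removal of the 10 libraries low in bulb markers, limma on the 54 libraries and the averaged drug comparisons were added after seeing the data.

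Calls were gained with the bulb marker level as a covariate for Kmt5b in HT minus WT averaged over treatments (0.0745) and with lithium (0.16), in fluoxetine minus vehicle (0.0809) and lithium minus fluoxetine (-0.0748) averaged over genotypes, and for Kmt5a under lithium in WT (0.14), and with the exon slope for Kmt5b in HT minus WT averaged over treatments (0.0937). With quantile normalisation the sign changed for Kmt5c under fluoxetine in HT (0.0037) and Kmt5b under lithium averaged over genotypes (-0.0070), and with TMM for Kmt5b between sexes (-0.0040). The bulb covariate changed it for Kmt5a in HT minus WT with lithium (-0.0056), Kmt5c under fluoxetine in HT (0.064), under lithium in WT (-0.023) and between sexes (0.0090), and the genotype difference in the fluoxetine response of Kmt5a (-0.043), Kmt5b (0.0038) and Kmt5c (0.0013). The striatum covariate changed it for Kmt5b in HT minus WT with fluoxetine (-0.0074). The exon slope changed it for Kmt5b under fluoxetine in HT (-0.0070), under lithium in HT (-0.040) and averaged (-0.053), and between sexes (-0.0023). Without the 10 low libraries it changed for Kmt5a in HT minus WT with lithium (-0.0044), Kmt5c under fluoxetine in HT (0.051) and lithium in WT (-0.014), the Kmt5a genotype difference in the fluoxetine response (-0.052), and Kmt5b under lithium averaged (-0.0043). The correlation of Kmt5a with Kmt5c lost its call with quantile normalisation (-0.22), the bulb covariate (-0.0052) and without the 10 low libraries (-0.19); that of Kmt5b with Kmt5c lost it with the bulb covariate (0.17), and that of Kmt5a with Kmt5b turned positive there (0.20).

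With the replicate block the sign of Kmt5b under lithium averaged over genotypes changed (-0.0010), and no call of a member changed; the Kmt5a difference under lithium in HT was 0.19 (adjusted p = 0.00172). For HT minus WT with vehicle 2 genes were called with the block and 8 without it, and with lithium 3 with the block and 10 without it. The replicate numbers pair nothing in the labels.

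When each library was left out in turn, ranges that changed sign or call were, for HT minus WT with fluoxetine, -0.016 to 0.024 for Kmt5b and -0.0070 to 0.088 for Kmt5c; for HT minus WT with lithium, -0.0070 to 0.046 for Kmt5a, 0.11 to 0.17 for Kmt5b and -0.019 to 0.039 for Kmt5c; for fluoxetine in HT, -0.052 to 0.020 for Kmt5c; for fluoxetine in WT, 0.0896 to 0.13 for Kmt5b; for lithium in WT, -0.00060 to 0.063 for Kmt5c; averaged over genotypes for Kmt5b, 0.0598 to 0.0814 for fluoxetine, -0.015 to 0.015 for lithium and -0.085 to -0.055 for lithium minus fluoxetine; for Kmt5b between sexes, -0.0072 to 0.012; and for the correlations, -0.34 to -0.23 (Kmt5a with Kmt5b) and -0.39 to -0.27 (Kmt5a with Kmt5c). Kmt5b for fluoxetine minus vehicle averaged over genotypes passed without WT fluoxetine male 2 or WT vehicle male 3, and for lithium minus fluoxetine without WT lithium female 1.

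Over all genes, the 2345 called for lithium minus vehicle in HT ranged from 1061 to 3186 over the settings, and the 556 in WT from 229 to 726. For fluoxetine the 2134 in HT ranged from 789 to 4088 and the 1232 in WT from 273 to 1306. For HT minus WT the counts ranged from 42 to 225 averaged over treatments, from 0 to 29 with vehicle, from 2 to 225 with fluoxetine and from 2 to 32 with lithium. With 1 library left out, the counts ran from 1644 to 2691 for lithium in HT, 272 to 771 for lithium in WT, 1353 to 2276 for fluoxetine in HT and 668 to 1629 for fluoxetine in WT. For HT minus WT they ran from 65 to 122 averaged over treatments, 2 to 25 with vehicle, 11 to 172 with fluoxetine and 2 to 211 with lithium, where 211 came without WT lithium female 1; for the genotype difference in response they ran from 1 to 46 for fluoxetine and 0 to 37 for lithium. Mitosis genes called under lithium in HT ranged from 1 to 5, where the 1 came from the filter at a mean of 100, which left only Mki67 to test.

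The number of libraries limits what can be detected: the interval of the Kmt5c difference of HT minus WT with vehicle ran from 0.0037 to 0.30. RNA levels say nothing of enzyme activity or of methylated H4K20, which were not measured here.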
